A study of Mus musculus with 12 samples.

Results

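The genes examined here were 10 regulators and markers of the trophoblast, the outer lineage of the early embryo that builds the placenta. They were Gata2, Gata3, Cdx2, Elf5, Tfap2a, Tfap2c, Rhox6, Rhox9, Plac1 and Krt7, taken by symbol from the deposited tables of 22878 gene symbols. All 10 had a row, and where a gene had several transcript models (Elf5, Tfap2a and Tfap2c) the longest was used. The series holds polyadenylated RNA of mouse embryonic stem (ES) cells. Its 3 genotypes were WT, a SUV420H2 knockout (KO), and a double knockout of SUV420H1 and SUV420H2 (DKO). The 2 enzymes methylate lysine 20 of histone H4. Of the 12 libraries, 6 came from undifferentiated cells, 2 per genotype, and 6 from cells differentiated for 8 or 12 days, 1 per genotype and day. Per the labels, ES cells of every genotype were grown on gelatin with 1.5 µM of an inhibitor of the kinase GSK3, for several passages, to rid them of feeder cells. The way the cells were differentiated, the sex and strain of the lines and the number of clones per genotype are not given in the sources used here. Separate cultures are not stated for the paired ES libraries either, so p-values of ES comparisons measure the spread between these libraries, which may be technical. In tests with differentiated libraries the 2 days stand in for replicates, with a shift between days shared by the genotypes. Their p-values and standard errors measure departures from that shift, pooled with the ES spread where all 12 libraries enter.

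Cdx2 is the homeobox factor that sets the trophectoderm apart from the inner cell mass. Gata3, Gata2 and the AP-2 factors Tfap2c and Tfap2a act with it in trophoblast progenitors, and Elf5 maintains the trophoblast stem cell state. Rhox6 and Rhox9 are homeobox genes of an X-linked cluster active in placenta and germ line, Plac1 is an X-linked placental gene, and Krt7 is a keratin of simple epithelia that marks trophoblast. Several of these genes also work elsewhere: Gata2 and Gata3 in blood, Cdx2 in the posterior embryo, Tfap2a in neural crest and surface ectoderm, and Tfap2c in germ cells and ES cells.

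Promoter sequences are shown for those starts of these genes that hold letters read by the families under study, since Gata and AP-2 factors are themselves among the 10 genes. Of the 10, 7 had an entry in the RefSeq promoter table (build GRCm38.p6, not the build of the deposited counts), with 11 starts, each covered from 250 bases before to 50 bases after it. Capitals mark the AP-2 letters GCCNNNGGC, which read alike on both strands, or the GATA letters AGATAA on either strand. Each sequence runs 5′ to 3′ on the strand of its gene.
Cdx2, chr5:147307200-147307499, minus strand: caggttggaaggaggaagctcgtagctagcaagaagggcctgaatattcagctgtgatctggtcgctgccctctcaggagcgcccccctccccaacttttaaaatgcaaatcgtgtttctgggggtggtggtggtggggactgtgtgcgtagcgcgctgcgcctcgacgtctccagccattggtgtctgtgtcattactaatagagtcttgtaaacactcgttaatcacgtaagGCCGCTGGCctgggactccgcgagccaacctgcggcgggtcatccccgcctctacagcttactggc
Gata2, chr6:88198414-88198713, plus strand: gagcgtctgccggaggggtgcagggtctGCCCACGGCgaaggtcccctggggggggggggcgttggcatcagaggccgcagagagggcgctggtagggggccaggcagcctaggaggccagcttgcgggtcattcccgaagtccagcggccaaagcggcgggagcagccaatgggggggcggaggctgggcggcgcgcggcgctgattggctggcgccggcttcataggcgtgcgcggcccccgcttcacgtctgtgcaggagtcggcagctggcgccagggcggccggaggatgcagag
Gata3, chr2:9878551-9878850, minus strand: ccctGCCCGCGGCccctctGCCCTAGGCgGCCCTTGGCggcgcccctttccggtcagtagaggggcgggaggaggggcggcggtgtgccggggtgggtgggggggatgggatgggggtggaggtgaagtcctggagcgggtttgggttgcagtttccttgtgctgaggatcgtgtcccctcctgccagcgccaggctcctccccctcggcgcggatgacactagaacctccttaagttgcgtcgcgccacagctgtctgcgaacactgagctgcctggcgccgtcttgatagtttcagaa
Krt7, chr15:101412153-101412452, plus strand: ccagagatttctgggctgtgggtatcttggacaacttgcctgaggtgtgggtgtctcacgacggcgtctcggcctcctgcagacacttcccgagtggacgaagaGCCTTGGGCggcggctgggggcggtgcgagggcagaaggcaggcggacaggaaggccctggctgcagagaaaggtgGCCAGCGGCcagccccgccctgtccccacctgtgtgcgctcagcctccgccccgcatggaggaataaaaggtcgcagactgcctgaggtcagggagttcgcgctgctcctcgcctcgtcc
Plac1, chrX:53240061-53240360, minus strand: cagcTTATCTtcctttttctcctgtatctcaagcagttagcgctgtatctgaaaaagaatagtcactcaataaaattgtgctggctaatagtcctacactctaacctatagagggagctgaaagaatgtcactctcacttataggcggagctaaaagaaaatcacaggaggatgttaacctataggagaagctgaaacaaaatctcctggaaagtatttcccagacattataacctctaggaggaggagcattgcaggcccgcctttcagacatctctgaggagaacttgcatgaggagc
The AP-2 letters were in 4 of the 11 promoters, against 16.6% of all 32851 promoters in the table, and Gata3 held 3 copies. The GATA letters were in 1 of 11, a start of Plac1, against 11.2% of all promoters. The 2 sets of letters overlapped in none of the printed sequences. The Gata2 start shown, and a further Gata2 start at chr6:88193641-88193940, were rich in the dinucleotide CG, with 29 and 32 copies. The Plac1 start shown held 3 copies, where the median of all promoters was 7. A match is a description of letters only.

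Counts in genes ranged from 22538336 to 26675600 reads per library. Suv420h2, the gene removed in both mutants, lay between 110 and 128 CPM (read counts scaled to library depth) in the 4 WT libraries and between 14.8 and 40.1 CPM in the other 8. Suv420h1 was at 59.8 to 83.5 CPM in the DKO libraries and at 44.2 to 56.1 CPM in WT. A deletion of single exons need not lower a whole-transcript count, so the Suv420h1 values do not check its deletion, and DKO is used here as the labels' name. The lines also differed in their sex-chromosome transcripts. The Y-linked gene Ddx3y had 911 to 1347 reads in each WT library and at most 1 read in each KO and DKO library, and Uty had 277 to 467 reads in WT and at most 1 elsewhere. Genotype and other differences between these lines cannot be told apart in this design. Values within a gene are in CPM below, and levels of different genes are compared in RPKM, the deposited values scaled to transcript length and library depth.

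In ES cells the trophoblast genes were low except for Tfap2c. By mean RPKM in WT ES cells, Tfap2c led with 18.9, followed by Gata2 with 1.97, Rhox6 with 1.07 and Rhox9 with 0.814. Cdx2 (0.524), Krt7 (0.260), Tfap2a (0.127), Plac1 (0.0406), Gata3 (0.0232) and Elf5 (0.00948) were below that. KO ES cells had Tfap2c (31.5 RPKM), Rhox9 (7.21) and Rhox6 (5.23) in front. In DKO ES cells Gata2 came first with 9.35 RPKM, ahead of Tfap2c with 6.83, while Rhox9 and Rhox6 were at 0.0916 and 0.0377. A gene was tested if 2 or more libraries of the comparison reached 1 RPKM, which Gata2, Gata3, Tfap2c, Rhox6 and Rhox9 met in ES cells. Gata3 and Rhox9 met it only through the KO libraries, and Rhox6 needed them, so their passing the filter already required a high KO level.

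**Figure D1:**
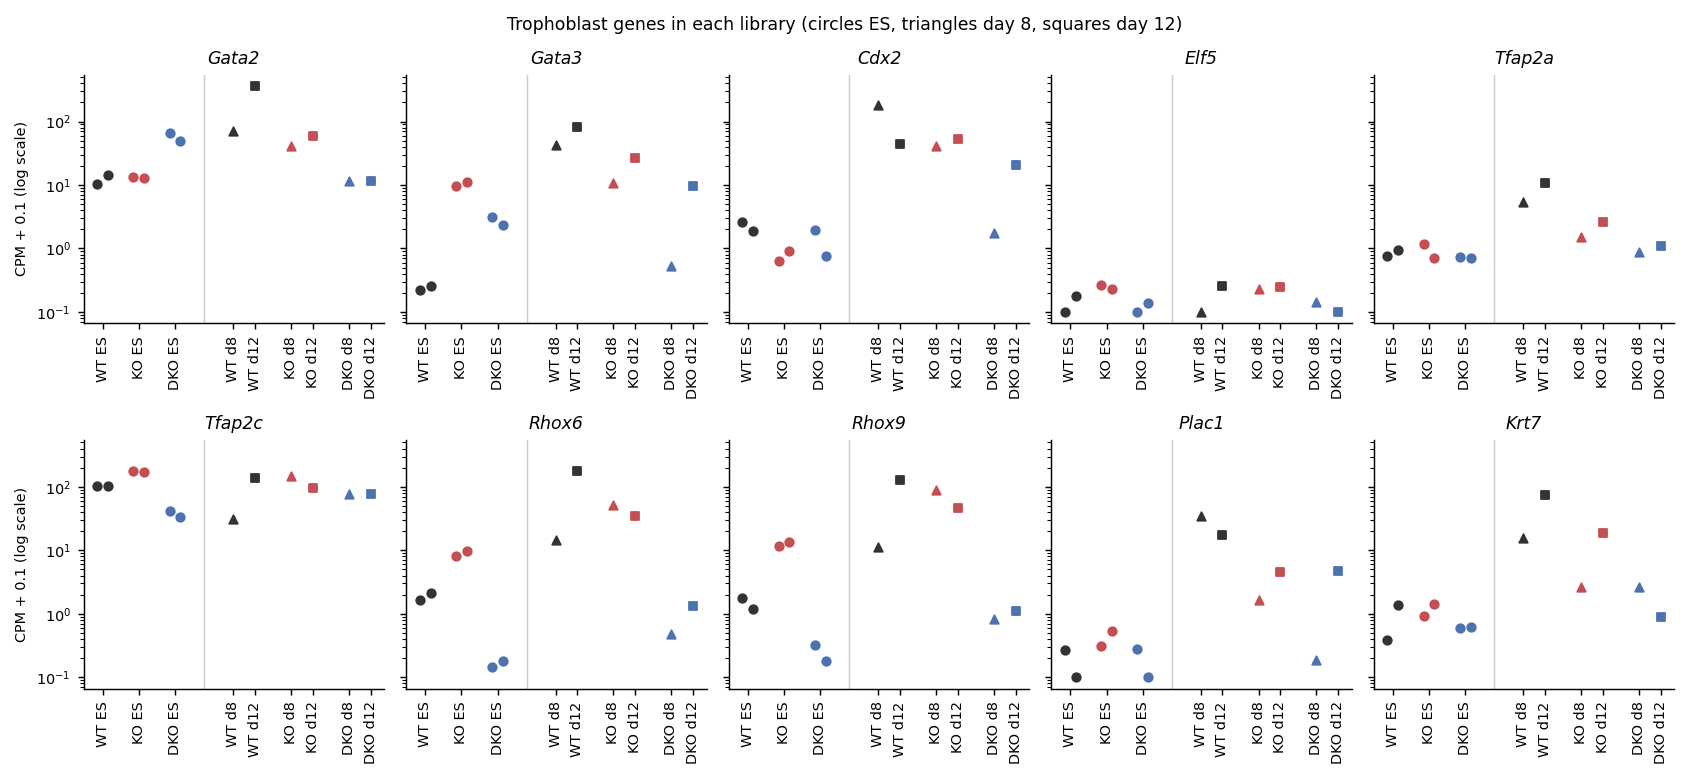
Level of each of the 10 genes in every library, as CPM + 0.1 on a logarithmic axis, with WT in black, KO in red and DKO in blue. Gata3 in ES cells lies at 9.39 and 11.1 CPM in KO and below 0.2 CPM in WT, and Elf5 stays at or below 0.166 CPM in all 12 libraries.

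Gata3, Rhox9, Rhox6 and Tfap2c were higher in KO than in WT ES cells. Gata3 measured 0.124 and 0.161 CPM in the WT libraries, against 9.39 and 11.1 CPM for KO. The KO libraries were far above both WT libraries, which held 3 and 4 reads. The log2 fold change was 6.12 (SE 0.41, edgeR quasi-likelihood test, Benjamini-Hochberg adjusted p = 3.93e-07). From the summed reads, 482 against 7, the ratio was 71.6 with an exact 95% counting interval of 34.5 to 179. Rhox9 measured 1.66 and 1.09 CPM in WT, against 11.7 and 13.2 CPM for KO. Rhox6 measured 1.53 and 2.01 CPM in WT, against 8.06 and 9.63 CPM for KO. Neither gene's groups overlapped, with log2 fold changes of 3.19 for Rhox9 (SE 0.31, edgeR adjusted p = 7.64e-06) and 2.32 for Rhox6 (SE 0.30, edgeR adjusted p = 6.10e-05). Tfap2c measured 104 and 101 CPM in WT, against 177 and 172 CPM for KO. Its rise was the smallest of the 4, at 0.78 (SE 0.12, edgeR adjusted p = 0.000311). Gata2, with 10.4 and 14.1 CPM in WT against 13.3 and 12.9 CPM for KO, had overlapping groups and a log2 difference of 0.11 (SE 0.19, edgeR adjusted p = 0.686). Of all genes tested in this comparison, 42.7% passed, 23.5% higher and 19.2% lower in KO.

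The 4 calls held in the 14 or 16 alternative analyses that could test each gene. The X chromosome as a whole was higher in KO ES cells, with a median log2 fold change of 0.91 over 433 genes and a range of 0.07 to 2.47 from the 10th to the 90th percentile. Rhox6 lay inside that range and Rhox9 above it, and the part of a chromosome-wide difference in their rise was not tested.

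Cdx2 was lower in KO ES cells, and the other genes below the filter had few reads. Cdx2 had 61 and 44 reads in WT ES cells and 13 and 19 in KO, a ratio of 0.317 (exact 95% counting interval 0.206 to 0.475). Without the filter its log2 fold change was -1.68 (SE 0.52, edgeR adjusted p = 0.00985). Plac1 had 4 reads in WT and 15 in KO, a ratio of 3.90 (1.24 to 16.1), and without the filter its edgeR adjusted p was 0.403. The intervals of Elf5 (2 and 7 reads), Tfap2a (37 and 40) and Krt7 (39 and 50) included 1, so no difference was detectable at this depth.

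In DKO ES cells Gata2 was higher than in both other genotypes, and Tfap2c, Rhox6 and Rhox9 were lower. Gata2 was at 65.6 and 49.8 CPM in DKO, above all 4 other ES libraries. Its log2 fold change was 2.24 against WT (SE 0.19, edgeR adjusted p = 7.89e-07) and 2.14 against KO (SE 0.19, edgeR adjusted p = 8.23e-07). Gata3, at 3.04 and 2.28 CPM in DKO, lay between WT and KO without overlap. It was 4.17 higher than in WT (SE 0.45, edgeR adjusted p = 6.31e-06) and differed from KO by -1.95 on the log2 scale (SE 0.27, edgeR adjusted p = 4.65e-05). Tfap2c was at 40.8 and 33.1 CPM in DKO, below every WT and KO library. Its log2 fold change was -1.47 against WT (SE 0.13, edgeR adjusted p = 1.12e-06) and -2.24 against KO (SE 0.13, edgeR adjusted p = 2.97e-08).

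The pair of Rhox genes was close to silent in DKO ES cells. Rhox6 had 1 and 2 reads there and Rhox9 had 5 and 2, the lowest of the 6 ES libraries in both genes. For Rhox6 the KO to DKO ratio of summed reads, 416 against 3, was 138 with a counting interval of 47.0 to 673, and the WT to DKO ratio was 27.8 (9.20 to 137). For Rhox9 the KO to DKO ratio was 83.3 (40.2 to 208) and the WT to DKO ratio 9.18 (4.22 to 23.7). The tests against WT gave log2 fold changes of -4.68 for Rhox6 (SE 0.57, edgeR adjusted p = 1.67e-05) and -3.15 for Rhox9 (SE 0.52, edgeR adjusted p = 0.000206). Against KO they were -7.00 (SE 0.49, edgeR adjusted p = 1.21e-07) and -6.33 (SE 0.43, edgeR adjusted p = 1.03e-07). The X chromosome median was -0.09 for DKO against WT and -0.93 for DKO against KO, and its part in these differences was not tested.

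Of all genes tested, 63.9% passed between DKO and WT and 67.3% between DKO and KO. The 5 trophoblast genes tested passed in both, but nothing is read from that number, since Gata3, Rhox6 and Rhox9 were tested only because of their KO level. The 3 ES comparisons share libraries, and each is given for its own values.

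**Figure D2:**
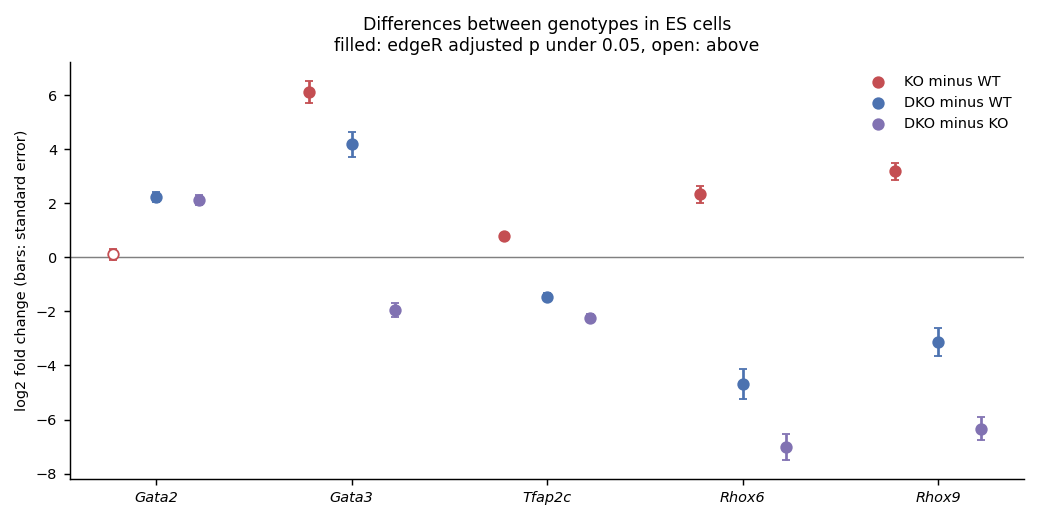
Log2 fold changes between genotypes in ES cells for the 5 genes that could be tested, with standard errors, filled where the edgeR adjusted p was under 0.05. Gata3, Rhox6 and Rhox9 are above 0 for KO minus WT, and Rhox6 and Rhox9 reach -7.00 and -6.33 for DKO minus KO.

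Rhox6 and Rhox9 lie in a cluster of homeobox genes, of which few members had enough reads to test. In the RefSeq order of protein-coding genes, Rhox6 lies between Rhox5 and Rhox7a, and Rhox9 follows Rhox8. Rhox5 had no row by that symbol and is not analysed here. Rhox7 and Rhox8, the neighbours with a row, never exceeded 0.839 and 0.0839 CPM in the 12 libraries. Rhox1 measured 0.414 and 0.483 CPM in WT ES cells, against 27.2 and 27.0 CPM for KO, up 5.91 on the log2 scale (SE 0.30, edgeR adjusted p = 5.17e-08). Rhox2a went from 1 read in all to 4.90 and 5.07 CPM, up 7.61 on the log2 scale (SE 0.69, edgeR adjusted p = 4.63e-06). Of 12 cluster genes with a row, Rhox1, Rhox2a, Rhox6 and Rhox9 could be tested in ES cells. Rhox1, Rhox2a and Rhox9 reached 1 RPKM in the KO libraries alone and Rhox6 needed them, so being tested already required a high KO level and their number supports nothing. The other 8 stayed at or below 1.83 CPM in every ES library.

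Rhox1 did not rise with Rhox6 and Rhox9 in differentiating WT cells. At days 8 and 12 it was at 0.0384 and 0.0794 CPM, a log2 change of -2.89 (SE 0.95, edgeR adjusted p = 0.0284), while Rhox6 reached 14.3 and 177 CPM. In KO at the same days Rhox1 was at 18.8 and 8.27 CPM. Only KO libraries took Rhox1 past the filter. In WT it stayed at or below 0.286 RPKM, so its fall there is a change near the floor. In transcripts of the GENCODE annotation, Rhox6 and Rhox9 share an identical run of 161 bases, and 207 of the 2398 stretches of 25 bases in Rhox9 occur in Rhox6, so the split of reads between them is uncertain. Gata2 and Gata3, and Tfap2a and Tfap2c, share no run longer than 17 bases.

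**Figure D3:**
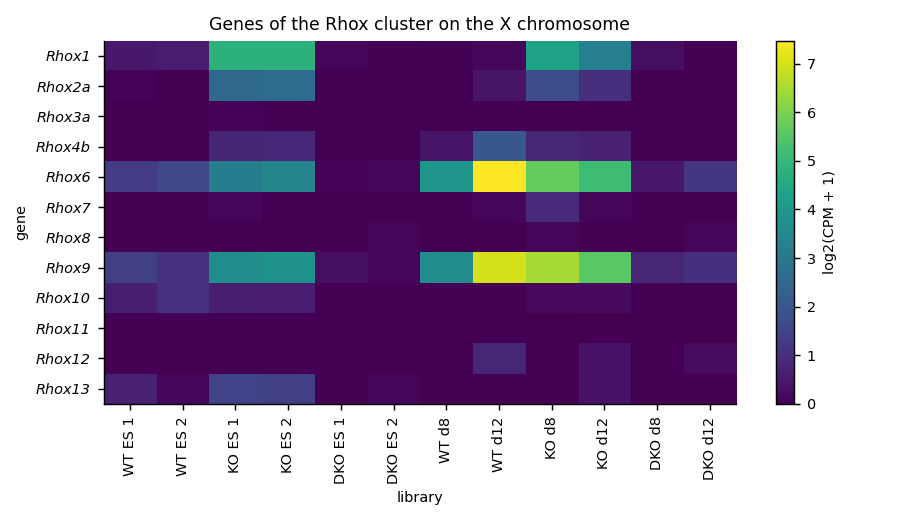
Level of 12 genes of the Rhox cluster in each library, as log2(CPM + 1), with libraries in columns. Rhox1, Rhox2a, Rhox6 and Rhox9 are seen in KO ES cells, Rhox6 and Rhox9 in differentiated WT and KO cells, and the DKO columns stay at or below 1.25 CPM.

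In differentiated WT cells most of these genes were above their ES level. Gata2 reached 71.5 CPM at day 8 and 365 CPM at day 12, and Gata3 42.8 and 82.2 CPM. Cdx2 was at 184 CPM at day 8 and 43.9 CPM at day 12, and Plac1 at 35.0 and 17.6 CPM. Both were lower at the later day, while Krt7 (15.6 and 73.5 CPM), Rhox6 (14.3 and 177 CPM) and Rhox9 (11.2 and 126 CPM) were higher. By RPKM, Cdx2 led at day 8 with 49.8 and Rhox6 at day 12 with 116. Each day had 1 library per genotype, so the order within a day has no replicate check.

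Against WT ES cells, 7 of the 8 genes that could be tested rose, beside 61.1% of all genes called in either direction (31.2% higher). The log2 fold changes were 8.73 for Gata3 (SE 0.94, edgeR adjusted p = 0.000147) and 8.63 for Plac1 (SE 1.77, edgeR adjusted p = 0.00326). Cdx2 rose by 5.88 (SE 1.23), Krt7 by 5.47 (SE 1.12), Rhox9 by 5.26 (SE 0.99), Rhox6 by 5.17 (SE 0.91) and Gata2 by 3.89 (SE 0.52), with edgeR adjusted p between 0.000387 for Gata2 and 0.00364 for Cdx2. Cdx2, Plac1 and Krt7 passed the filter only through differentiated libraries, and so had to stand higher there. Tfap2c, at 30.8 CPM on day 8 and 136 CPM on day 12, overlapped the ES level and had a log2 difference of -0.42 (SE 0.53, edgeR adjusted p = 0.510). This depended on the day: it was 0.61 without the day 8 library (edgeR adjusted p = 0.0414) and -1.88 without the day 12 library (edgeR adjusted p = 0.000153). Tfap2a, below the filter, had 139 and 266 reads at days 8 and 12 against 16 and 21 in ES cells, and Elf5 had 0 and 4, where a count of 0 allows up to 3 reads.

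In differentiated KO cells Cdx2, Gata2, Rhox6 and Rhox9 rose. Cdx2 was at 40.5 and 52.3 CPM at days 8 and 12, against 0.540 and 0.824 CPM in KO ES cells, up by 6.07 on the log2 scale (SE 1.28, edgeR adjusted p = 0.0110). Gata2 was at 41.6 and 59.0 CPM, up by 1.94 (SE 0.48, edgeR adjusted p = 0.0195). Rhox6 (51.7 and 34.7 CPM) rose by 2.62 (SE 0.80, edgeR adjusted p = 0.0408) and Rhox9 (87.8 and 46.1 CPM) by 2.66 (SE 0.86, edgeR adjusted p = 0.0484). These 4 of 8 passed beside 29.3% of all genes tested. All 4 calls depended on which libraries entered the fit. Without either KO ES library none of the 8 genes passed, at an edgeR adjusted p of 0.0879 and 0.0873 for Cdx2 and 0.119 and 0.119 for Gata2. Without the KO day 8 library Gata2 had a log2 fold change of 1.46 (edgeR adjusted p = 0.107), Rhox6 of 0.32 (edgeR adjusted p = 0.627) and Rhox9 of 0.56 (edgeR adjusted p = 0.581). Rhox6 and Rhox9 also missed the threshold without any one of the WT ES, DKO ES or DKO differentiated libraries, with edgeR adjusted p of 0.0618 to 0.0829. Without either differentiated WT library more of the 8 passed in KO, and more of all genes tested passed as well.

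The other genes did not pass in KO. Gata3, at 10.5 and 26.1 CPM, overlapped its already raised ES level (log2 difference 0.72, SE 0.62, edgeR adjusted p = 0.407). Plac1 was at 1.55 and 4.41 CPM (edgeR adjusted p = 0.135), Krt7 at 2.52 and 18.9 CPM (edgeR adjusted p = 0.0652), and Tfap2c at 149 and 95.1 CPM (edgeR adjusted p = 0.542).

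In differentiated DKO cells Gata2 fell and no other of the 8 genes passed. Gata2 was at 11.3 and 11.6 CPM at days 8 and 12, below both DKO ES libraries, with a change of -2.28 on the log2 scale (SE 0.49, edgeR adjusted p = 0.0162). This was the 1 gene of 8 that passed, beside 19.7% of all genes, and it missed the threshold without DKO ES library 1 (log2 fold change -2.07, edgeR adjusted p = 0.0701), without DKO ES library 2 (-2.46, edgeR adjusted p = 0.0771) and without the DKO day 12 library (-1.63, edgeR adjusted p = 0.114). Cdx2, Gata3 and Plac1 were higher on day 12 than on day 8. Cdx2 was at 1.64 CPM on day 8 and 20.3 CPM on day 12, Gata3 at 0.431 and 9.55 CPM, and Plac1 at 0.0862 and 4.56 CPM. Rhox6 was at 0.388 and 1.25 CPM, Rhox9 at 0.733 and 1.01 CPM and Krt7 at 2.50 and 0.779 CPM. The log2 differences from DKO ES cells were above 0 but wide, at 4.09 for Plac1 (SE 1.71), 3.37 for Rhox6 (SE 1.52), 2.96 for Cdx2 (SE 1.18), 2.46 for Rhox9 (SE 1.37), 2.05 for Krt7 (SE 1.12) and 0.22 for Gata3 (SE 0.67), with edgeR adjusted p of 0.110 to 0.840. Tfap2c, at 77.4 and 76.5 CPM, was above both DKO ES libraries (log2 difference 1.08, SE 0.52, edgeR adjusted p = 0.176). Gata3 changed by -2.04 without the day 12 library (edgeR adjusted p = 0.0186) and by 1.27 without the day 8 library (edgeR adjusted p = 0.0295). Without either differentiated WT library more of the 8 genes passed in DKO, and more of all genes tested passed as well.

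**Figure D4:**
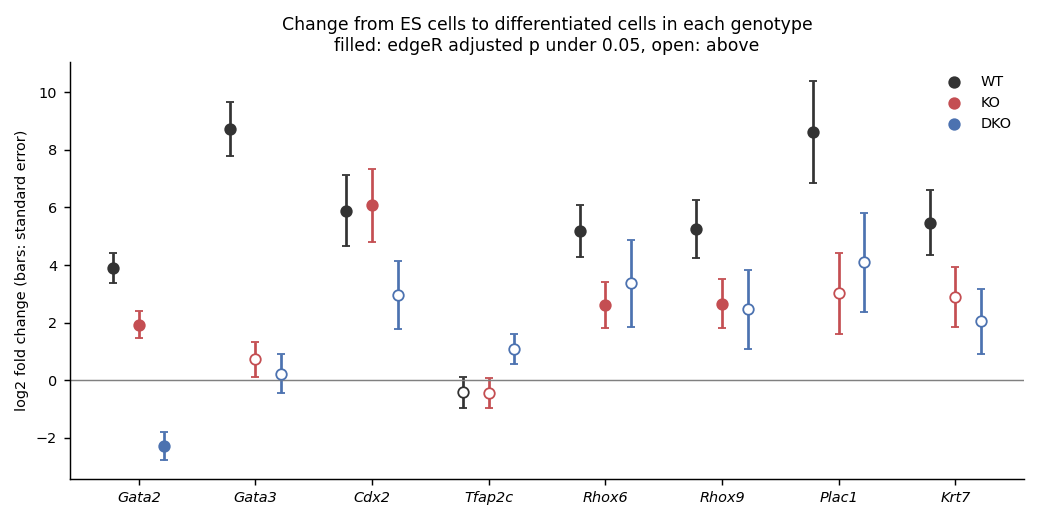
Log2 fold change from ES cells to differentiated cells within each genotype for the 8 genes tested, with standard errors, filled where the edgeR adjusted p was under 0.05. Gata2 is at 3.89 in WT, 1.94 in KO and -2.28 in DKO, and Tfap2c is not called in any genotype.

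Whether the genotypes changed by different amounts was tested with an interaction. The change of Gata3 was smaller in KO than in WT, with a log2 interaction of -8.01 (SE 1.10, edgeR adjusted p = 0.00472). It was the 1 gene of 8 that passed, beside 16.3% of all genes. Between DKO and WT, 2 of 8 passed, beside 42.0% of all genes: Gata3 with -8.51 (SE 1.14, edgeR adjusted p = 0.000972) and Gata2 with -6.16 (SE 0.71, edgeR adjusted p = 0.000525). Gata3 in KO and DKO ES cells and Gata2 in DKO ES cells lay above WT, and in the differentiated libraries they lay below it. The KO interaction of Gata2 was -1.95 (SE 0.67, edgeR adjusted p = 0.0814). The changes of Cdx2, Rhox6, Rhox9, Plac1, Krt7 and Tfap2c were not shown to differ from WT in KO (edgeR adjusted p of 0.121 to 0.986) or in DKO (edgeR adjusted p of 0.110 to 0.579).

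Set side by side, most of these genes were lowest in the differentiated DKO libraries, and KO overlapped WT in most, but no gene of the 10 passed the test between genotypes. Both DKO libraries were below both WT libraries in 8 of the 10 genes, all but Elf5 and Tfap2c, where 27.6% of all genes with a read lay that way round. They were below both KO libraries in 9 of 10, all but Plac1 (24.8% of all genes with a read). In several of these the nearest DKO and KO libraries are within counting error. Elf5 had 1 and 0 reads in DKO against 3 and 4 in KO. Krt7 had 58 reads in DKO and 60 in KO on day 8. Between DKO on day 12 and KO on day 8, Tfap2a had 26 and 34 reads and Gata3 had 245 and 251. KO was below WT without overlap in Gata2, Gata3, Tfap2a and Plac1 (22.4% of all genes with a read). The log2 fold changes of DKO against WT were -6.46 for Rhox6 (SE 1.30, edgeR adjusted p = 0.0666), -5.91 for Rhox9 (SE 1.37, edgeR adjusted p = 0.0789), -4.36 for Gata3 (SE 0.99, edgeR adjusted p = 0.0779) and -3.89 for Gata2 (SE 0.69, edgeR adjusted p = 0.0599). Cdx2 had -3.69 (SE 1.57, edgeR adjusted p = 0.195), Krt7 -3.99 (SE 1.30, edgeR adjusted p = 0.128) and Plac1 -4.50 (SE 1.70, edgeR adjusted p = 0.163). Tfap2c had 0.06 (SE 0.73, edgeR adjusted p = 0.962).

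With edgeR, 0 of the 8 genes passed in any of the 3 comparisons of differentiated genotypes, where 0%, 2.18% and 0.00775% of all genes did (KO minus WT, DKO minus WT and DKO minus KO). At an unadjusted p under 0.05 there were 3002, 3970 and 2161 genes. DESeq2 called 2, 7 and 4 of the 8, beside 1836, 3139 and 1176 of all 12896 genes tested. Over 14 alternatives the DKO minus WT log2 fold change ran from -4.84 to -2.74 for Gata2 and from -7.66 to -4.23 for Rhox6. It ran from -7.34 to -3.40 for Rhox9 and from -0.97 to 1.54 for Tfap2c. Rhox6 and Rhox9 passed the filter through WT and KO libraries alone, as did Krt7, and so were tested because they were high outside DKO. Between KO and WT, Rhox6 and Rhox9 overlapped, with differences of -0.22 (SE 1.18) and 0.57 (SE 1.24), while the X chromosome median was 0.51. Xist, the RNA of X inactivation, had 6103 and 17626 reads in differentiated KO cells, 32 and 19 in WT and 249 and 123 in DKO, and its part in the X-linked genes was not tested. Between days 8 and 12, 0 of the 8 genes passed with edgeR over the 3 genotypes, where 0% of all genes did. An unadjusted edgeR p under 0.05 was reached by 1582 genes. DESeq2 called 1 of the 8, beside 566 of 12896 genes.

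Markers of other cell types and of undifferentiated cells moved with the same libraries. In bulk samples fewer cells of a type and less RNA per cell cannot be told apart. The summed RPKM of 5 ES identity genes was 160 and 176 in differentiated WT cells, 864 and 434 in KO and 1349 and 892 in DKO, against 1228 to 2167 in ES cells. In WT, Klf4 was at 10.7 RPKM on day 8 and made up 118 of the 176 RPKM on day 12. Pou5f1, Nanog, Sox2 and Zfp42 were lower in WT on day 12 than on day 8. The 11 blood and endothelial genes summed to 2589 and 69.2 RPKM in WT, 82.2 and 259 in KO and 19.6 and 16.7 in DKO. Hba-x, an embryonic globin, accounted for much of the WT day 8 value with 2072 CPM and was at 0 reads in DKO. The 7 primitive endoderm genes summed to 290 and 726 RPKM in WT, 32.4 and 192 in KO and 21.7 and 327 in DKO. The 5 feeder and fibroblast genes summed to 381 and 251 RPKM in WT, 10.4 and 98.8 in KO and 4.21 and 1.21 in DKO. Col1a1 led them in WT, at 1353 and 950 CPM. Thy1, of the same list, had the reverse order on day 8: WT 0.886 RPKM, KO 4.33 RPKM, DKO 4.07 RPKM. It thus made up most of the DKO day 8 sum. On day 12 Thy1 was highest in WT (2.27 RPKM, against 1.24 for KO and 0.686 for DKO). Lists of posterior streak (8.26 to 65.2 RPKM), neural crest and surface ectoderm (3.47 to 111 RPKM) and germ cells (22.9 to 56.6 RPKM) varied as well in the differentiated libraries. Their part in the levels of the trophoblast genes was not tested.

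Among other trophoblast genes, Krt18 and Krt19 rose on differentiation in all genotypes, Hand1 and Krt8 rose in WT and KO, and several placental markers stayed near 0. Of 27 other trophoblast genes listed, 26 had a row. Tpbpa, Prl3d1, Prl2c2 and Ctsq, which mark the spongiotrophoblast and giant cells of the placenta, stayed at or below 0.794 CPM in all 12 libraries, and the syncytial gene Synb at or below 2.42 CPM. A second syncytial gene, Syna, reached 16.5 CPM in WT at day 12, and Sct, at 0.768 and 4.96 CPM in differentiated WT cells, rose there by 4.62 on the log2 scale (SE 0.98, edgeR adjusted p = 0.00385). Hand1, a factor of giant cells that also acts in mesoderm, was at 838 and 371 CPM in differentiated WT cells, and at 286 and 458 CPM for KO. In DKO it stayed at 1.81 and 7.95 CPM. Hand1 rose in WT by 9.77 (SE 0.83, edgeR adjusted p = 5.65e-05) and the DKO interaction -9.52 (SE 1.01, edgeR adjusted p = 0.000366). Between differentiated DKO and WT it was -7.14 (SE 1.01, edgeR adjusted p = 0.0523). The keratins Krt18 and Krt19 rose in every genotype, by 5.74 and 5.21 in WT, 4.11 and 4.23 in KO and 2.18 and 2.82 in DKO, with edgeR adjusted p of at most 0.000843. Krt8 rose by 4.66 in WT and 4.39 in KO. In DKO it was at 17.0 and 154 CPM against 53.4 and 55.2 CPM in ES cells (edgeR adjusted p = 0.912), with an interaction of -4.58 (SE 0.63, edgeR adjusted p = 0.00107).

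In ES cells 18 of these genes were tested. Fgfr2 and Wnt7b reached 1 RPKM there only in the KO libraries, and Hand1 only in KO and DKO. Their being tested already required a high level in those libraries, so the counts and medians below are descriptions only. Between KO and WT 11 were higher and 2 lower, with a median log2 fold change of 0.61 against -0.01 for all genes tested, of which 42.7% were called. Among them were Hand1, with 0.870 and 0.603 CPM in WT against 5.73 and 6.42 CPM for KO (a log2 difference of 3.05, SE 0.33, edgeR adjusted p = 1.68e-05), and Peg10, an imprinted placental gene (1.36, SE 0.14, edgeR adjusted p = 1.38e-05). The cadherin Cdh3 rose by 1.03 (SE 0.14, edgeR adjusted p = 9.27e-05). Between DKO and KO 4 were higher and 11 lower (median -0.63 against -0.02, with 67.3% of all genes called), led by Cdh3 with -3.25 (SE 0.16), Fgfr2 with -3.19 (SE 0.24) and Gjb5 with -2.39 (SE 0.19), while Krt8 had 2.71 (SE 0.15), with edgeR adjusted p of at most 3.54e-07. Between DKO and WT 6 were higher and 5 lower, where 63.9% of all genes were called, a share near that of the list, with Krt8 (1.94, SE 0.15) and Tead4 (1.33, SE 0.13) among the former and Cdh3 (-2.22, SE 0.15) and 1600029D21Rik, the row of Plet1 (-1.79, SE 0.21), among the latter, with edgeR adjusted p of at most 1.36e-05.

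On differentiation 19 were tested. In WT 11 rose and 1 fell, beside 61.1% of all genes called in either direction. In KO 7 rose and 3 fell (29.3% of all genes called), and in DKO 6 rose and 2 fell (19.7%). Sct passed the filter only through differentiated libraries, and so had to stand higher there. Esrrb, shared by ES and trophoblast stem cells, fell in all 3. The KO interaction was higher for 2 and lower for 6, beside 16.3% of all genes called. The DKO interaction was higher for 3 and lower for 10, beside 42.0% of all genes called. Between differentiated DKO and WT cells Esrrb was higher (4.12, SE 0.40, edgeR adjusted p = 0.0432), and Krt19 (-2.98, SE 0.24, edgeR adjusted p = 0.0430) and Krt18 (-2.25, SE 0.28, edgeR adjusted p = 0.0472) were lower. Of all genes, 2.18% were called in this comparison.

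**Figure D5:**
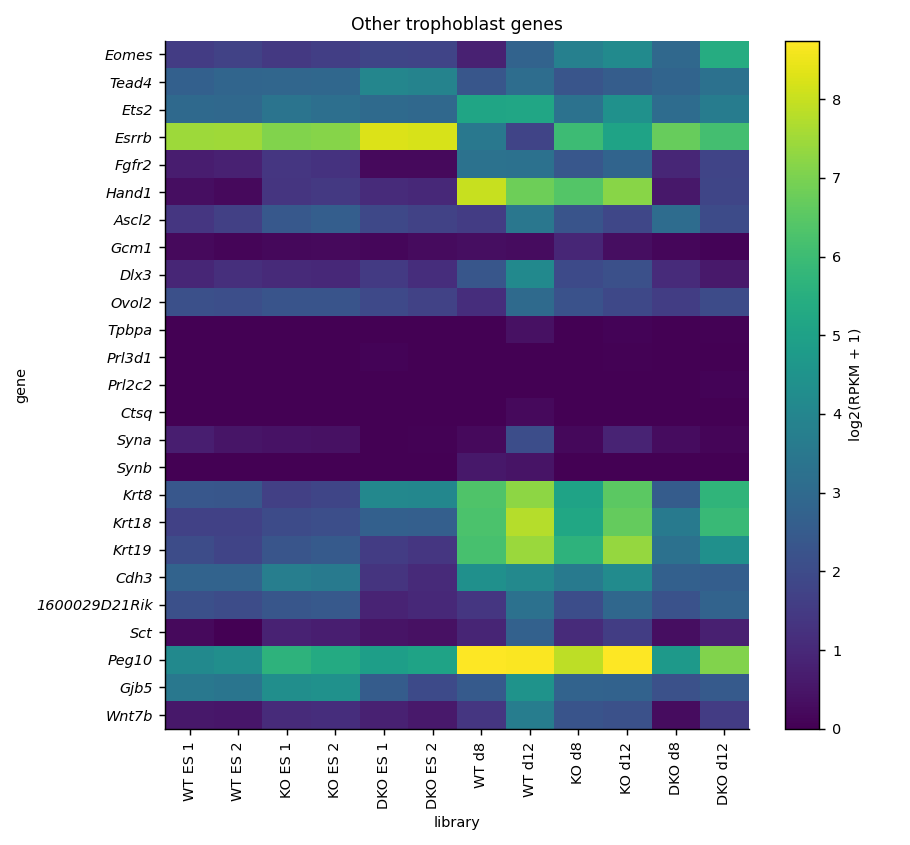
Level of other trophoblast genes in each library, as log2(RPKM + 1), so that genes can be compared with each other. Tpbpa, Prl3d1, Prl2c2, Ctsq and Synb are dark in all 12 libraries, and Hand1 is bright in differentiated WT and KO cells and dark in DKO.

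Over the 12 libraries Tfap2c stood apart from the other genes compared (Elf5 and Tfap2a were too low to enter). As a description over libraries that share genotype and state, Pearson's r of log2(CPM + 1) was 0.986 between Rhox6 and Rhox9, 0.908 between Cdx2 and Plac1, 0.837 between Gata3 and Plac1, 0.682 between Gata2 and Gata3, and from 0.529 to 0.986 over all pairs without Tfap2c. Tfap2c gave -0.242 with Gata2 to 0.546 with Rhox9. Over all 13429 genes compared, the genes most like Gata2 were Litaf (0.967), Manbal (0.931) and Syt6 (0.928). Those most like Gata3 were Tesk1 (0.972), Mtss1l (0.969) and Ppp1r16b (0.969), and those most like Cdx2 were Tmem119 (0.983), Asb4 (0.982) and Wnt5a (0.980). Tfap2c was nearest to Ctu1 (0.9496), Tfe3 (0.929) and Klhl15 (0.922), of which Tfe3 and Klhl15 are on the X chromosome. After each other, Rhox6 was nearest to Lsm11 (0.957) and Fam101a (0.945), and Rhox9 to Socs7 (0.949) and Lsm11 (0.945). Plac1 was nearest to Fmo1 (0.990), Fut8 (0.970) and Bnc1 (0.969). Krt7 was nearest to the matrix genes Bgn (0.974), Col6a1 (0.973) and Dcn (0.970). Plac1 and Krt7 were near 0 in most libraries, so a few differentiated libraries set their values.

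The annotation places exons of other genes over some of the 10. Gata3 shares 155 exon bases with Gm13256 on the opposite strand and 77 with 9230102O04Rik on its own strand. Tfap2a shares exon bases with Gm26688 (380), Gm47061 (265) and Gm47067 (73), and Krt7 with Gm671 (77), all on the opposite strand. No source used here gives the use of strand in counting, so reads of such pairs cannot be told apart.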

How the data were processed

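RNA of 12 mouse libraries was analysed. Reads were aligned with Bowtie2 to the genome build mm9, per the submitters' processing notes. The counting program, its use of strand and its handling of reads with several matches are not given in the sources used here. No header line is in the deposited files. For 29257 transcript models they hold whole-number counts, an exon length and RPKM values by the authors, as the file names and the values themselves show: counts over length and RPKM give 1 constant per file. Models of a gene each count the reads they share. Of 22878 symbols, 4019 had several models, and the longest was kept.

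The main test was edgeR 4.0.16 (quasi-likelihood, TMM scaling) on the counts, over genes that reached 1 RPKM in 2 or more libraries entering the fit. A Benjamini-Hochberg adjusted p under 0.05 over all genes tested counted as a call. Standard errors were taken as the log2 change over the root of F. ES comparisons used 6 ES libraries, differentiated comparisons 6 libraries with genotype and day, and changes within a genotype and interactions all 12 libraries with a mean per genotype and state and a term for day. CPM values were TMM-scaled over 12 libraries. R 4.3.3, limma 3.58.1, DESeq2 1.42.0, Python 3.11.15, pandas 2.3.3, numpy 2.4.6, scipy 1.17.1 and matplotlib 3.10.9 were used, and the tests were tried on simulated counts. Counting intervals (95%, exact) and floors cover counting error only. Genes named were the 10, up to 4 other trophoblast genes per comparison with the smallest adjusted p, the Rhox neighbours, and the 3 most correlated genes each; 1 gene of the other trophoblast list is counted but not reported here. Eomes and other genes named beyond these were chosen after their values were seen. The members and lists were chosen with earlier results of these data known. Alternatives were other scalings, filters, tools, models and sets of libraries.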

Additional observations from a re-analysis of the deposited data

Results flagged for a closer look

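A difference between genotypes in the change on differentiation, by a test of the difference itself, was met by 3 results. The interaction of Gata3 between KO and WT was -8.01 on the log2 scale (edgeR adjusted p = 0.00472). Gata3 went from 0.124 and 0.161 CPM to 42.8 and 82.2 CPM in WT, and from 9.39 and 11.1 CPM to 10.5 and 26.1 CPM in KO. The interaction of Gata3 between DKO and WT was -8.51 (edgeR adjusted p = 0.000972), with 3.04 and 2.28 CPM in DKO ES cells and 0.431 and 9.55 CPM after differentiation. The interaction of Gata2 between DKO and WT was -6.16 (edgeR adjusted p = 0.000525). Gata2 went from 10.4 and 14.1 CPM to 71.5 and 365 CPM in WT and from 65.6 and 49.8 CPM to 11.3 and 11.6 CPM in DKO. All 3 kept their sign and their call in each of 20 alternatives, with log2 values of -8.64 to -2.88 and -10.7 to -3.24 for Gata3 and -7.12 to -5.03 for Gata2. The values nearest to 0 for Gata3 came from limma on log2(RPKM + 1). Each differentiated day had 1 library per genotype.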

How the results depend on the processing

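Among values of single genes under alternatives, 1315 kept direction and side of the threshold, 92 passed only under the alternative, 29 lost the call and 37 changed sign. The calls in ES cells were kept wherever the gene could be tested. Counts of trophoblast genes called differed by setting. With the 2 groups alone, DKO minus WT in ES cells gave 2 in place of 5, since fewer genes were tested. DESeq2 gave 2 for differentiated KO minus WT, 7 for DKO minus WT and 4 for DKO minus KO (edgeR 0 in each). Of all 12896 genes it called 1836, 3139 and 1176. For differentiation in DKO it gave 4 (edgeR 1), beside 3802 of 13429 genes. For the KO and DKO interactions it gave 4 and 5 (edgeR 1 and 2), beside 3308 and 6366 of 13429 genes. For day it gave 1 (edgeR 0), beside 566 of 12896 genes. Limma on log2(RPKM + 0.1) gave 4 for differentiated DKO minus WT and 5 for the DKO interaction, beside 911 of 12896 and 5650 of 13429 genes. Limma on log2(RPKM + 1) gave 2 for differentiated DKO minus WT, 2 for the KO interaction and 6 for the DKO interaction. Beside these stood 714 of 12896, 2049 of 13429 and 5474 of 13429 genes. The cause of these differences was not tested.

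Leaving out 1 library at a time, the count of genes called ran from 2 to 4 for KO minus WT in ES cells, 3 to 5 for DKO minus WT and 3 to 5 for DKO minus KO, lowest without a KO ES library, where Gata3 and Rhox9 could not be tested. It ran from 0 to 3 for differentiated DKO minus WT and 0 to 3 for DKO minus KO, with Gata2, Rhox6 and Rhox9 called without either differentiated WT library. It ran from 0 to 7 for differentiation in KO and 0 to 6 in DKO, lowest without an ES library of that genotype and highest without a differentiated WT library. For the KO interaction it was 1 to 5 (5 without WT day 8, 3 without WT day 12 or KO day 8, 2 without DKO day 12), and for the DKO interaction 2 to 4 (4 without WT day 12 or DKO day 12). A lone library was then assumed to vary like the other groups. The number of all genes called moved as well, as given below, so nothing about these genes in particular is read from such counts.

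Values that changed sign on leaving out 1 library ranged as follows. For KO minus WT in ES cells the range was Gata2 -0.10 to 0.35. For differentiated cells it was Cdx2 -2.73 to 1.19, Rhox6 -2.09 to 1.52, Rhox9 -1.18 to 2.75, Tfap2c -0.36 to 2.14 in KO minus WT, Tfap2c -0.97 to 1.54 in DKO minus WT, and Plac1 -4.87 to 0.58, Tfap2c -1.43 to 0.35 in DKO minus KO. For differentiation it was Tfap2c -1.88 to 0.61 in WT, Tfap2c -1.49 to 0.31 in KO, and Cdx2 -0.0328 to 4.43, Gata3 -2.04 to 1.27, Krt7 -0.69 to 3.57 in DKO. For the interactions it was Cdx2 -1.09 to 2.72, Tfap2c -1.18 to 1.35 in KO and Rhox6 -3.08 to 0.50 in DKO, and for day 12 minus day 8 Cdx2 -0.85 to 1.88, Rhox9 -0.44 to 2.27, Tfap2c -0.34 to 1.09. None of these was called in the main analysis. Other settings changed the sign of Tfap2c in differentiated DKO minus WT (-0.0059 with edgeR's own filter, -0.0191 with the model with the most reads) and in the KO interaction (0.14 and 0.10 with limma, 0.0021 without the filter), and of Cdx2 in the KO interaction (-0.54 with limma on log2(RPKM + 1)). Rhox9 in KO differentiation lost its call with autosomal scaling (adjusted p = 0.0533), edgeR's own filter (0.0520) and the model with the most reads (0.0527).

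Over all genes, the count called was 0 for differentiated KO minus WT (1836 with DESeq2, 160 and 136 with limma, 7 without the filter), 281 for DKO minus WT (3139, 911 and 714, and 175 with edgeR's own filter), 1 for DKO minus KO (1176, 15 and 5), 2190 for the KO interaction (3308 with DESeq2) and 0 for day (566 with DESeq2). Without 1 library it was 506 to 4546 for differentiation in DKO against 2641, 1010 to 5662 in KO against 3933, 0 to 1804 for differentiated DKO minus WT, 0 to 251 for DKO minus KO, 395 to 3891 for the KO interaction, 3612 to 6763 for the DKO interaction against 5638, and 3206 to 6368 for KO minus WT in ES cells against 5142. A replicate block in ES cells changed no count of trophoblast genes called (4, 5 and 5). Deviations of same-numbered ES libraries correlated at -0.006, -0.055 and -0.10, so the numbers were not taken as pairing the libraries, and no block was possible where a state had 1 library per day. Depth limits Elf5, with 22 reads in all 12 libraries, and Plac1 in ES cells.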

Other observations

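Eomes, a regulator shared by trophoblast stem cells and the primitive streak, did not follow the 10 genes. At days 8 and 12 it measured 4.69 and 38.5 CPM for WT, 87.7 and 107 CPM for KO and 49.1 and 261 CPM for DKO, against 12.5 to 18.0 CPM in ES cells. Its log2 change on differentiation was -0.04 in WT (SE 0.53, edgeR adjusted p = 0.949), 3.005 in KO (SE 0.56, edgeR adjusted p = 0.00707) and 2.70 in DKO (SE 0.55, edgeR adjusted p = 0.0138). The interactions were 3.05 in KO (edgeR adjusted p = 0.0330) and 2.75 in DKO (edgeR adjusted p = 0.0192). The streak genes T and Fgf8 also rose in KO (6.96 and 4.97, edgeR adjusted p = 0.0122 and 0.0162) and in DKO (5.79 and 5.203, edgeR adjusted p = 0.0380 and 0.0236). T measured 41.5 and 67.9 CPM for KO, 0.431 and 88.3 CPM for DKO and 0.538 and 9.17 CPM for WT. The interactions of T and Fgf8 did not pass, at an edgeR adjusted p of 0.0922 (KO) and 0.124 (DKO) for T and 0.167 and 0.112 for Fgf8. Other genes of the posterior streak list went otherwise. Cdx1 fell on differentiation in WT, KO and DKO (-2.94, -2.39 and -3.46, edgeR adjusted p of at most 0.00964). Tbx6 rose in WT and KO (2.09 and 1.52, edgeR adjusted p = 0.00222 and 0.0231), and its DKO interaction was -2.06 (edgeR adjusted p = 0.0182). T, Fgf8 and Tbx6 passed the filter only through differentiated libraries, and so had to stand higher there. Tbx6 passed only through those of WT and KO, so its rises and its DKO interaction are descriptions only.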
